A study of Schizosaccharomyces pombe with 4 samples.

Results

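The left arm interior of chromosome 2 of fission yeast (Schizosaccharomyces pombe) was taken as the positions from 100000 up to, but not including, 1500000 of the array's chromosome 2 contig, 1400 kb between the outermost stretch of the arm and the centromere's surroundings. It held 4646 of the 41551 probes of the array, chosen by position alone. The probes lay 300 bp apart, with a longest gap of 1500 bp, and gave 699 windows of 2 kb with at least 3 probes. Each value is the log2 ratio of immunoprecipitated BrdU-labelled DNA over input DNA, where 0 is the median probe of that array. Positions are printed as the probe names give them. Their genome build is not named in the file headers, and against the reference (chromosome 2 of 4539804 bp) the input signal followed GC content best at a shift of -860 bp, within 300 bp of which lay 13 of 14 blocks of the arm. No gene was therefore placed on the arm and no sequence was read from the reference.

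Origin use was mapped in cells held in early S phase. The 2 arrays labelled fft3Δ (genotype cdc25-22 fft3_delta) come from cells said to lack Fft3, a chromatin remodeller of the SNF2 family, and the 2 wild-type arrays from cdc25-22 cells labelled wt. Both genotypes share cdc25-22, a heat-sensitive form of the phosphatase Cdc25, without which cells wait before mitosis, and the modules Pnmt1-TK and Padh1-hENT, a thymidine kinase under the nmt1 promoter and a nucleoside transporter under the adh1 promoter, so that the controls were not unmodified cells. Cells were blocked at 37 °C and let go by a return to 26 °C, with hydroxyurea (10 mM) and bromodeoxyuridine (BrdU, 200 µM) added at that point, and the arrays are of cells at 120 min. A genotype's arrays belong to series 1 and series 2, and the labels do not say whether these were separate cultures, so that p-values measure only the spread between these arrays.

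Eukaryotic chromosomes are copied from many origins, some of which fire early in S phase and others late or rarely. Fission yeast origins lie mainly in AT-rich intergenic DNA. Hydroxyurea depletes deoxynucleotides, so forks from early origins stall near their start and the replication checkpoint holds back late ones, while BrdU, a thymidine analogue, marks the DNA that was copied. A high ratio therefore stands for DNA copied in these cells, and the words early and late below are used in that sense, for ratios and not for measured times.

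All 4646 probes of the arm were well above background in both channels of the 4 arrays, and none was saturated. The median input signal was 17.1 and 55.1 times background on labelled fft3Δ arrays 1 and 2, and 17.9 and 212 times on wild-type arrays 1 and 2. Wild-type array 2 stood apart in its input, which spread less over the arm's probes (SD of log2 signal 0.47) than on wild-type array 1 (1.01) or on the labelled fft3Δ arrays (1.03 and 0.93). Over the arm's windows its input correlated with the other 3 at r of 0.64 to 0.69, against 0.97 to 0.99 among those 3, a description over 699 windows that share base composition. The deletion was not visible in the input: among 41218 runs of 12 probes, the length of the fft3 gene (3611 bp), none was lower by 1 or more in both series, so the arrays are called labelled fft3Δ. Arrays of series 1 shared a slide and a scanner, and those of series 2 another scanner but no slide.

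The mean BrdU signal of the whole arm differed between genotypes by less than the wild-type arrays differed from each other, and by more than the labelled fft3Δ arrays did. Its mean log2 ratio was 0.01 and 0.001 on labelled fft3Δ arrays 1 and 2, against -0.02 and 0.05 on wild-type arrays 1 and 2. The group means were 0.004 ± 0.005 on the labelled fft3Δ arrays and 0.02 ± 0.05 on the wild-type arrays (SD, n = 2 each). The difference, labelled fft3Δ minus wild type, came to -0.01, with 0.02 in series 1 and -0.05 in series 2, opposite in sign, and to 0.02 without wild-type array 2. The exact permutation test, two-sided, gave p = 1, where 2 arrays against 2 cannot go below 0.33. Across the arm's windows the ratio had an SD of 0.61 and 0.58 on the labelled fft3Δ arrays and 0.61 and 0.55 on the wild-type arrays.

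The left arm interior had a higher ratio than the right arm interior of the same chromosome on every array. The left arm exceeded the right by 0.19 and 0.21 on labelled fft3Δ arrays 1 and 2, and by 0.19 and 0.26 on wild-type arrays 1 and 2. The mean over the 4 arrays was 0.21, with the left arm higher in 4 of 4 arrays (exact sign-flip permutation test, two-sided, p = 0.13, the smallest that 4 arrays allow). Against the interiors of the left and right arms of chromosome 1 the excess was 0.19 and 0.15, again in 4 of 4 arrays and at the same smallest p. With 3 such comparisons, adjustment leaves each p at 0.13. Without wild-type array 2 the excess over the right arm was 0.20.

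**Figure D1:**
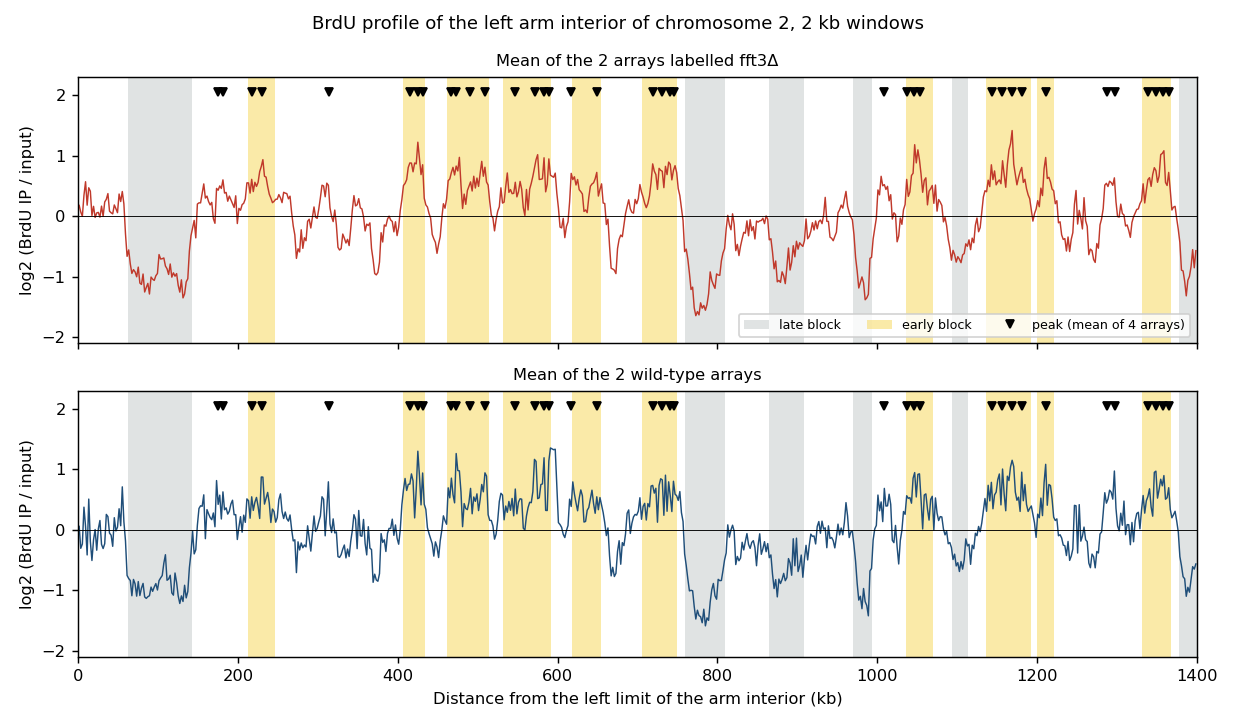
Mean log2 ratio of BrdU-immunoprecipitated over input DNA in 2 kb windows along the 1400 kb, for the 2 arrays labelled fft3Δ (above) and the 2 wild-type arrays (below), against distance from the left limit in kb. Shading marks the 10 early and 6 late blocks and triangles the 37 peaks, all defined on the mean of the 4 arrays; 30 of the peaks lie in the shaded early blocks and 0 in the late blocks, which the rules for peaks and blocks, set on the same mean, largely fix.

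The BrdU ratio was arranged in alternating high and low stretches. Blocks were runs of at least 20 kb in which the 20 kb running mean, over the 4 arrays, lay in the upper 25% (above 0.33, early) or the lower 25% (below -0.40, late) of all chromosome windows. The arm held 10 early blocks of 402 kb in all and 6 late blocks of 240 kb. Early blocks thus took 28.8% of its windows, against 6.17% on the right arm interior and 21.1% over the 3 chromosomes, while late blocks took 17.2%, against 26.6% on the right arm interior and 21.8% over the chromosomes. These shares come from a rule on the same values and are given as a description. Without wild-type array 2 they were 25.7% early and 17.6% late. The mean log2 input over the 4 arrays ran from -0.42 to -0.10 in the late blocks and from -0.08 to 0.36 in the early blocks. The part of the input in the pattern was not tested.

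The longest early block, 632000 to 691999, spanned 60 kb and had a mean of 0.50 and 0.55 on labelled fft3Δ arrays 1 and 2 and 0.53 and 0.54 on wild-type arrays 1 and 2. The next, 1236000 to 1291999 (56 kb), stood at 0.70 and 0.67 on the labelled fft3Δ arrays and 0.65 and 0.64 on the wild-type arrays. There the genotypes did not overlap, though their means differ by 0.03. The 52 kb block at 562000 to 613999 had 0.57 and 0.62 on the labelled fft3Δ arrays and 0.63 and 0.56 on the wild-type arrays, and that of 44 kb at 806000 to 849999 had 0.66 and 0.56 against 0.58 and 0.52. The lowest of the early levels belonged to the 36 kb block at 718000 to 753999, at 0.44 and 0.43 on the labelled fft3Δ arrays and 0.46 and 0.45 on the wild-type arrays. Length and level were not in the same order: the highest early block by mean, at 506000 to 533999 with 28 kb, averaged 0.75 over the 4 arrays.

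The late blocks differed in depth by more than the arrays did within a block. The 80 kb block at 162000 to 241999, nearest the telomere, had -0.97 and -0.94 on labelled fft3Δ arrays 1 and 2 and -1.02 and -0.82 on wild-type arrays 1 and 2. The 50 kb block at 860000 to 909999 was the deepest of the arm, at -1.12 and -1.18 on the labelled fft3Δ arrays and -1.23 and -0.98 on the wild-type arrays. Blocks of 44 kb at 964000 to 1007999 and of 38 kb at 1478000 to 1515999, the second of which runs past the limit of the interior, averaged -0.69 and -0.74 over the 4 arrays. A 24 kb block at 1070000 to 1093999 averaged -0.96. The shortest, 20 kb at 1194000 to 1213999, was also the shallowest at -0.56. In each of the 6 late blocks wild-type array 2 gave the highest of the 4 values.

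The lowest single windows sat inside these blocks, which the block rule, set on the same mean, largely fixes. The minimum of the arm was the window at 884000, with -1.32 and -1.79 on the labelled fft3Δ arrays and -1.73 and -1.45 on the wild-type arrays. Those at 1088000, 230000, 1486000 and 188000 followed, with means over the 4 arrays of -1.36, -1.27, -1.21 and -1.19. Windows under -1 made up 7.30% and 6.58% of the arm on the labelled fft3Δ arrays and 8.15% and 4.01% on the wild-type arrays. Windows over 0.5 made up 22.9% and 19.6% on the labelled fft3Δ arrays and 22.0% and 19.2% on the wild-type arrays.

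Blocks defined on one series were high or low in the other as well. Early blocks defined on the arrays of series 1 had, in series 2, a mean of 0.58 on the labelled fft3Δ array and 0.57 on the wild-type array, and late blocks -0.88 on the labelled fft3Δ array and -0.71 on the wild-type array. With blocks defined on series 2 and read in series 1, early blocks had 0.61 on the labelled fft3Δ array and 0.57 on the wild-type array, and late blocks -0.94 on the labelled fft3Δ array and -0.996 on the wild-type array. In each of these 4 readings at least 98.0% of the early windows lay above 0 and at least 96.9% of the late windows below it.

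**Figure D2:**
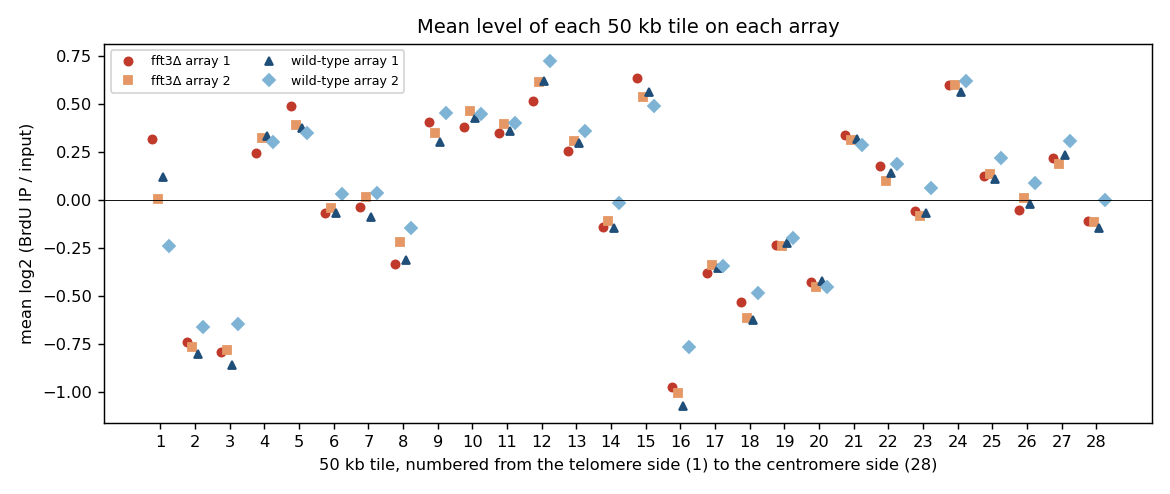
Mean log2 ratio of each of the 28 tiles of 50 kb, numbered from the telomere side, with a point for each of the 4 arrays. The means over the arrays range from -0.95 in tile 16 to 0.62 in tile 12, and tile 1 has the widest spread between arrays, from 0.32 to -0.24.

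No block or tile passed the genotype test. Each was tested with limma over all such features of the array, and at an adjusted p under 0.05 none of the 16 blocks (0% of 122 called over all blocks) and none of the 28 tiles (0% of 249) passed. At an unadjusted p under 0.05 limma called 0 of 16 blocks (background 0%) and 0 of 28 tiles (background 2.01%). Differences, labelled fft3Δ minus wild type, ran from -0.15 to 0.08 over the blocks and from -0.11 to 0.22 over the tiles. The difference was below 0 in all 6 late blocks and above 0 in 7 of the 10 early ones, or 7 of 16 blocks (43.8%, background 43.4%), none past the test. In the late blocks that sign came from wild-type array 2: within series 1 the difference was above 0 in 5 of the 6, and without that array it was above 0 in all 6. The genotypes did not overlap in 2 blocks with a positive difference (12.5%, background 15.6%) and in 1 with a negative one (6.25%, background 12.3%). A positive difference was found in 7 of 28 tiles (25%), against 37.3% of the tiles of the array. Some tiles of the arm passed in limma when wild-type array 1 was left out, a setting given here without its share over the array.

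The tile nearest the telomere, 100000 to 149999, gave the largest tile difference and the widest spread. It had 0.32 and 0.005 on labelled fft3Δ arrays 1 and 2, against 0.12 and -0.24 on wild-type arrays 1 and 2, a difference of 0.22 with an SE of 0.14 (limma adjusted p = 0.895). The groups overlapped. The tile at 650000 was the highest of the arm and ranked 8 of 249 over the array, with 0.52 and 0.62 on the labelled fft3Δ arrays and 0.62 and 0.73 on the wild-type arrays. It contains the stretch of very bright input from 690000 to 697999 described further on, whose part in the rank was not tested. The tile at 850000, the lowest of the arm, ranked 240.

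The borders between early and late DNA were read as steps, the mean of the 10 kb to the right of a window boundary minus that of the 10 kb to its left, at a local extreme of over 0.5. The arm had 30 steps, 15 upward and 15 downward, or 2.15 per 100 kb, against 2.41 on the right arm interior and 2.18 over the chromosomes. Only 3 of the 30 exceeded a size of 1, against 14 of 64 on the right arm interior.

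The sharpest rise lay at 1094000, the right border of the 24 kb late block. The ratio to its left was -1.07 and -1.09 on labelled fft3Δ arrays 1 and 2 and -1.06 and -1.01 on wild-type arrays 1 and 2. To its right it was 0.01 and 0.06 on the labelled fft3Δ arrays and 0.18 and 0.15 on the wild-type arrays. The step was thus 1.08 and 1.15 on the labelled fft3Δ arrays and 1.24 and 1.16 on the wild-type arrays, and present on all 4. The sharpest fall, at 858000, entered the deepest late block, with -1.08 and -1.16 on the labelled fft3Δ arrays and -1.27 and -1.10 on the wild-type arrays.

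Most of the other large steps also bounded late blocks, which the rules for steps and blocks, both set on the same mean, largely fix. The rises at 240000 and 910000 (means over the 4 arrays 0.84 and 0.66) and the falls at 160000, 1072000 and 1478000 (-1.02, -0.95 and -0.94) each lay within 2 kb of a late block's limit. The rises at 1382000 (0.82) and 504000 (0.72) did not; that at 504000 opened the highest early block. The late blocks at 162000, 860000 and 1070000 are thus each framed by a fall and a rise among the 5 largest steps of each direction.

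The fall at 700000 differed most between genotypes. It measured -0.62 and -0.84 on labelled fft3Δ arrays 1 and 2 and -1.04 and -1.31 on wild-type arrays 1 and 2, so that the groups did not overlap, and the difference was 0.44 with an SE of 0.18 (limma unadjusted p = 0.016, adjusted p = 0.995). It was the 1 step of 30 at an unadjusted p under 0.05 (3.33%, background 1.11% of 271). None passed after adjustment in limma (0% of 271 over the array). Some steps of the arm passed when wild-type array 1 was left out, a setting given here without its share over the array. The step at 700000 borders a stretch of very bright input described further on.

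**Figure D3:**
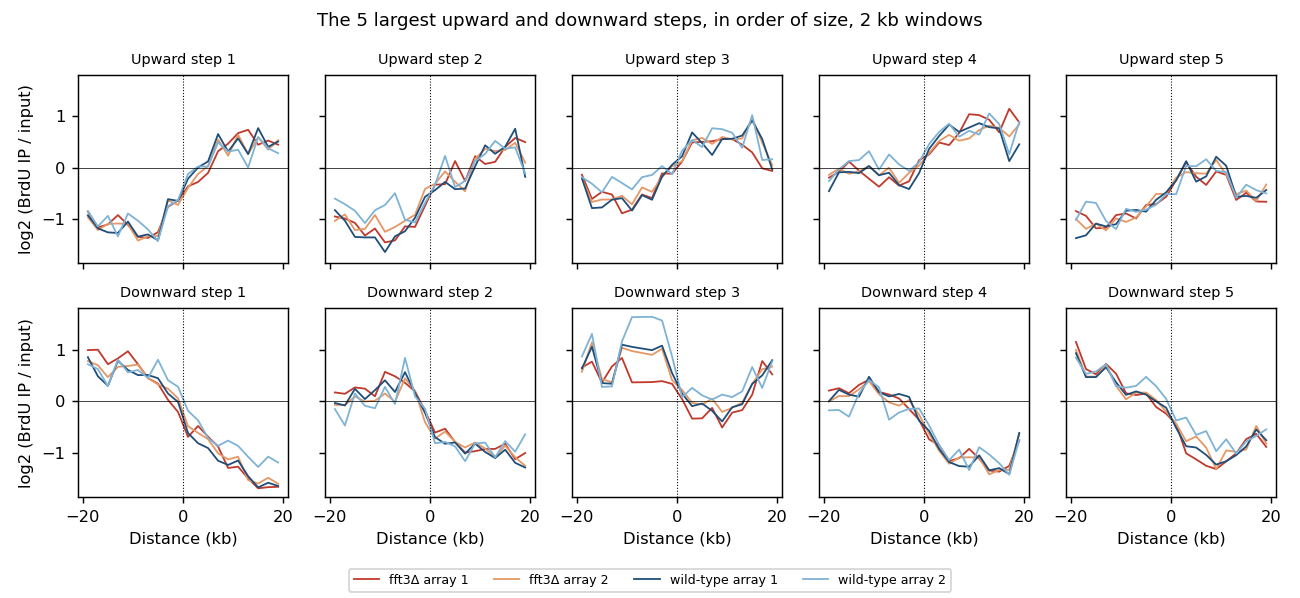
Log2 ratio in 2 kb windows from 20 kb before to 20 kb after each of the 5 largest upward steps (top row) and the 5 largest downward steps (bottom row), with a line for each array. Every array shows each step; at the third downward step, at 700000, the lines fan out on the left side, with labelled fft3Δ array 1 lowest and wild-type array 2 highest.

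To find origin-like peaks, the 4 arrays were averaged and smoothed with neighbouring probes up to 500 bp away, and a probe was kept if none within 5 kb was higher and its smoothed height was 0.74 or more. That limit is 1 background SD (0.73) over the median. The arm held 37 of the 302 peaks of the chromosomes, or 2.65 per 100 kb, against 1.20 on the right arm interior, 1.81 and 2.17 on the left and right arm interiors of chromosome 1, and 2.43 over all windows. Their median spacing was 12900 bp, against 15600 bp over the chromosomes. Heights ran from 0.75 to 1.60 with a median of 0.98, against 0.94 for the other peaks of the array. The lowest peak admitted, at 749400, had a height of 0.750, and the highest maximum left out, at 1034100, had 0.741. Without wild-type array 2 the arm had 36 peaks.

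Peaks were joined into groups where closer than 15 kb, a limit above their median spacing of 12900 bp, so that many joins follow from the limit. The 37 formed 18 groups, of which 8 were single peaks and 10 held the other 29, up to 4 in a group. No other arm was grouped for comparison. Early blocks held 30 of the 37, late blocks 0, and 7 lay elsewhere, counts that the rules for peaks and blocks, both set on the same mean, largely fix. The longest stretch without a peak ran from 846300 to 1108200, 261.9 kb, and averaged -0.51 and -0.53 on the labelled fft3Δ arrays and -0.54 and -0.45 on the wild-type arrays, with 18 of its 125 windows above 0 on the mean of the arrays. A stretch of 174.2 kb from the left limit to 274200 and one of 102.0 kb from 413400 to 515400 followed. The longest of these stretches holds 3 of the 6 late blocks, the deepest among them.

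The tallest peak, at 1269000, reached 1.60 in the smoothed mean. Its level, the mean of the probes within 1 kb, was 1.33 and 1.51 on labelled fft3Δ arrays 1 and 2 and 1.19 and 1.11 on wild-type arrays 1 and 2. The probe at its apex alone read 1.82 and 2.06 on the labelled fft3Δ arrays and 2.06 and 1.63 on the wild-type arrays. It lies in the 56 kb early block with 3 other peaks, at 1243200, 1256400 and 1281300. In the level within 1 kb both labelled fft3Δ arrays exceeded both wild-type arrays, while at the apex probe the genotypes overlapped.

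The second tallest, at 525300 with a height of 1.38, had a level of 1.17 and 1.22 on the labelled fft3Δ arrays and 1.26 and 1.31 on the wild-type arrays. It sits in the highest early block, between peaks at 515400 and 531600. The next 3 lay together in the 60 kb block, at 671700 (height 1.35), 689100 (1.34) and 682800 (1.26), and all 3 were lower on labelled fft3Δ array 1 than on any other array. Below these came 1458300 (1.20), 1449000 (1.16), 1153500 (1.16), 573000 (1.15), 1146300 (1.14), 1311600 (1.13) and 329400 (1.12), spread from the telomere side to the centromere side of the arm.

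**Figure D4:**
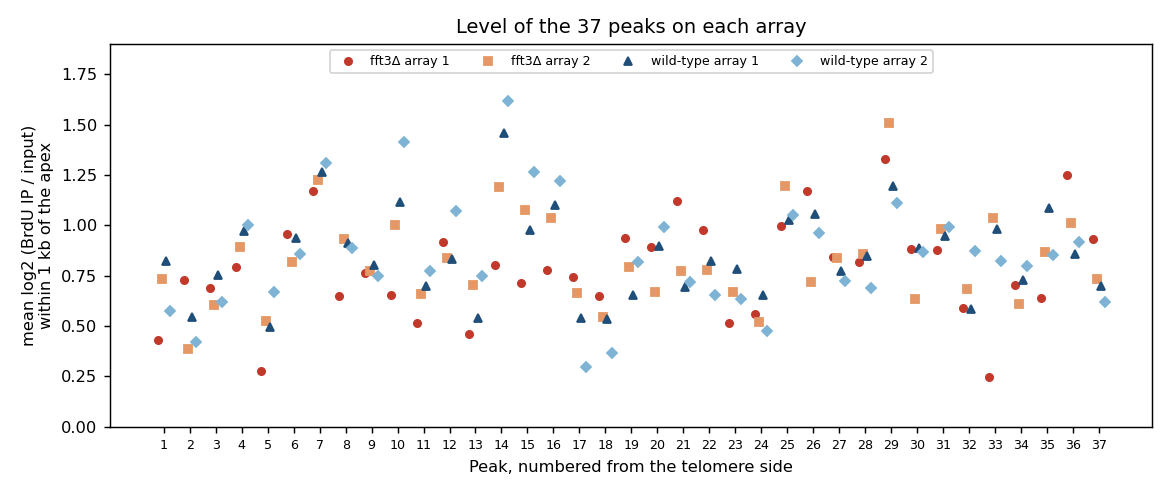
Mean log2 ratio within 1 kb of the apex for each of the 37 peaks, numbered from the telomere side, with a point for each array. The lowest point is 0.245, and at peaks 10 and 14 (573000 and 671700) both wild-type arrays lie above both labelled fft3Δ arrays.

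Few peaks were picked at the same spot by every array. When peaks were called on each array alone, an apex within 1 kb of the shared one was found on 4 arrays for 4 peaks (525300, 682800, 1281300 and 1465500), on 3 for 9, on 2 for 20, on 1 for 3 and on none for 1, at 830100. Labelled fft3Δ array 1 placed an apex at 12 of the 37 and labelled fft3Δ array 2 at 24, against 29 and 21 on wild-type arrays 1 and 2. Called on each genotype's mean, the arm had 39 peaks on the labelled fft3Δ arrays and 46 on the wild-type arrays. Within 1 kb 21 of them matched, which is 53.8% of the labelled fft3Δ list and 45.7% of the wild-type list, and within 3 kb 27 matched, 69.2% of the labelled fft3Δ list and 58.7% of the wild-type list. Levels at the unmatched spots varied: at 573300, called in wild type alone, the labelled fft3Δ arrays read 0.61 and 0.98, and the wild-type arrays 1.07 and 1.51. At 660300, called on the labelled fft3Δ arrays alone, these read 0.36 and 0.45, and the wild-type arrays 0.15 and 0.19.

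The averaged peak was narrow and stood on a raised floor. Its narrow top is partly set by the rule, which picked each apex on these arrays smoothed over probes within 500 bp. Over the 37 peaks the apex averaged 0.93 and 1.09 on labelled fft3Δ arrays 1 and 2 and 1.15 and 1.09 on wild-type arrays 1 and 2. The midpoint between apex and floor was passed between 300 and 600 bp from the apex on either side on all 4 arrays. The DNA was sheared to 500 to 1000 bp. Between 8100 and 9000 bp away the ratio was still 0.51 and 0.50 on the labelled fft3Δ arrays and 0.47 and 0.50 on the wild-type arrays. Since many peaks have a neighbour within that distance, the floor includes other peaks.

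**Figure D5:**
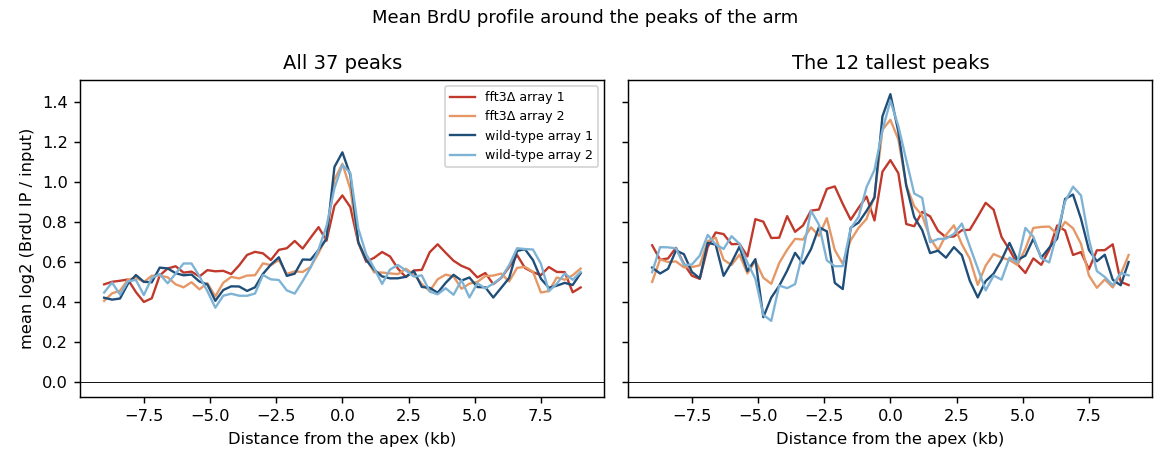
Mean log2 ratio against distance from the apex (kb) over all 37 peaks (left) and over the 12 tallest (right), with a line for each array. On labelled fft3Δ array 1 the central spike is the lowest of the 4, 0.93 over all peaks and 1.11 over the 12 tallest, and the other 3 arrays reach 1.09 to 1.15 and 1.31 to 1.44; about 9 kb away all lie between 0.4 and 0.7.

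No peak passed the genotype test after adjustment. The median level of the 37 was 0.78 on each labelled fft3Δ array and 0.83 and 0.82 on wild-type arrays 1 and 2. In limma 0 of 37 had an adjusted p under 0.05 (0% of 302 over the array). Some peaks of the arm passed when labelled fft3Δ array 2 or wild-type array 1 was left out, settings given here without their share over the array. At an unadjusted p under 0.05 limma called 2 peaks lower on the labelled fft3Δ arrays (5.41%, background 8.28%) and 0 higher (background 2.98%). The genotypes did not overlap at 7 peaks that were higher on the labelled fft3Δ arrays (18.9%, background 11.3%) and at 8 that were lower (21.6%, background 31.8%). The median difference was -0.06, against -0.09 over all peaks.

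The 2 peaks called before adjustment were 671700 and 573000. At 671700 the level was 0.80 and 1.19 on labelled fft3Δ arrays 1 and 2 and 1.46 and 1.62 on wild-type arrays 1 and 2, a difference of -0.54 with an SE of 0.15 (limma adjusted p = 0.092). It was -0.66 within series 1, whose arrays share a slide, and -0.43 within series 2, and -0.35 without labelled fft3Δ array 1 and -0.46 without wild-type array 2. With series as a block the peak passed (limma adjusted p = 0.0074), as it did without labelled fft3Δ array 2 (adjusted p = 0.013), without wild-type array 1 (0.039) and with non-uniform spots kept (0.035), and over all alternatives its adjusted p ran up to 0.996. Its input was brighter on the labelled fft3Δ array in both series, by 0.35 and 0.84. In series 2, where wild-type array 2 had the narrower input range, other peaks with bright input showed such a gap, as 1.05 at 329400 and 1.16 at 525300. Some with dim input went the other way, as -0.21 at 716700. The Cy5 signal alone gave 0.09 at 671700, the opposite sign, though a positive Cy5 difference was usual among the arm's peaks. The part of the input in the difference was not tested.

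At 573000 the level was 0.66 and 1.002 on the labelled fft3Δ arrays and 1.11 and 1.41 on the wild-type arrays, a difference of -0.43 (limma adjusted p = 0.18), which was -0.26 without labelled fft3Δ array 1 and -0.29 without wild-type array 2. Another background correction, normexp, moved the differences at 671700 and 573000 to -0.98 and -0.97. At 573000 the input was brighter on the labelled fft3Δ array by 0.18 in series 1 and 1.09 in series 2, the second a gap that other peaks with bright input, such as 608700 (1.13), also showed. Of the other peaks named as lower, 689100 differed by -0.25, 682800 by -0.23 and 413400 by -0.18, with limma adjusted p of 0.527, 0.589 and 0.681. All 5 of these differences turned positive in the Cy5 signal alone, which takes no account of the input. A positive Cy5 difference was usual among the arm's peaks, with the exceptions 1243200 (-0.006) and 1449000 (-0.13), so it does not set these 5 apart.

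The peaks with the highest test statistic on the labelled fft3Δ arrays were not called either. At 716700 the level was 0.74 and 0.66 on the labelled fft3Δ arrays and 0.54 and 0.30 on the wild-type arrays, a difference of 0.28 (limma adjusted p = 0.456). At 1269000, the tallest peak, the difference was 0.27 (limma adjusted p = 0.478), 0.13 in series 1 and 0.40 in series 2. Those at 1458300, 840300 and 1465500 were 0.24, 0.24 and 0.17. Without wild-type array 2 the differences at 716700 and 1269000 were 0.16 and 0.22. With normexp background correction 4 of these 5 differences turned negative, 716700 excepted.

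Single windows gave no call over the whole array. In limma 0 of the 699 windows of the arm passed after adjustment (0% of 6234), and at an unadjusted p under 0.05 there were 14 higher on the labelled fft3Δ arrays (2%, background 3.64%) and 10 lower (1.43%, background 1.2%). The largest positive statistics belonged to windows at 520000, 674000 and 326000. At 520000 the ratio was 1.15 and 0.61 on the labelled fft3Δ arrays and 0.13 and 0.27 on the wild-type arrays, a difference of 0.68. At 674000, just right of the peak at 671700, it was 1.18 and 0.86 on the labelled fft3Δ arrays and 0.55 and 0.48 on the wild-type arrays, so that the values at this peak and on its flank differed in opposite directions, neither past the test. The negative ones were at 1408000, 208000 and 694000, with differences of -0.46, -0.41 and -0.68; each of the 6 had a limma adjusted p of 0.883.

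With series as a block, 8 windows of the arm passed in limma (114 over the array), 5 higher on the labelled fft3Δ arrays and 3 lower. The higher ones were at 110000, 114000, 116000, 326000 and 520000, and in all 5 the input was dim (mean log2 -0.36 to -1.58) and dimmer still on the labelled fft3Δ array in both series. The 3 lower ones, at 690000, 694000 and 696000, had the brightest input of the arm, and it was brighter on the labelled fft3Δ array in both series. In all 8 windows the group mean of the Cy5 signal alone was higher on the labelled fft3Δ arrays, by 0.17 to 0.46. The series differed over the 3 lower windows. There the Cy5 signal was 3.57 on the labelled fft3Δ array against 3.89 on the wild-type array in series 1. In series 2 it was 3.56 against 2.50. In series 2 the input spread more on the labelled fft3Δ array than on wild-type array 2 over the whole arm (SD 0.93 against 0.47). The input gaps of that series are thus not particular to these windows. The part of the input in these calls was not tested.

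The stretch from 690000 to 697999, whose edge falls within the 1 kb read around the peak at 689100, stood apart in both channels. Over its 3 windows the log2 input was 3.09 and 2.52 on labelled fft3Δ arrays 1 and 2 and 2.75 and 0.86 on wild-type arrays 1 and 2, where 0 is the median probe, and no other window of the arm exceeded 2. The Cy5 signal was 3.57 and 3.56 on the labelled fft3Δ arrays and 3.89 and 2.50 on the wild-type arrays. Its ratio was 0.38 and 0.97 on the labelled fft3Δ arrays and 1.05 and 1.62 on the wild-type arrays, a difference of -0.66. The array with the brightest input thus had the lowest ratio and that with the dimmest input the highest. Across the arm's windows ratio and input correlated at r = 0.28 and 0.33 on the labelled fft3Δ arrays and 0.34 and 0.03 on the wild-type arrays, a description in which both share the Cy3 signal. Of the 10 windows of the arm with an input over 1, 9 had a ratio over 0.5, against 145 of all 699, and 28 of the 37 peaks had an input above the median probe. The share of such peaks over the array is not given here. The median log2 input was 0.36 at the arm's peaks, against 0.42 at the other peaks of the array, so bright input is not particular to this arm.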

How the data were processed

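Immunoprecipitated DNA (Cy5) and whole-cell extract DNA (Cy3) were measured on 4 arrays, all of this dye orientation, so dye bias does not cancel. The deposited scanner files hold intensity values, background-subtracted and dye-normalized per the file headers by Agilent Feature Extraction (version 12.0 on 3 arrays, 11.5 on wild-type array 2), with a log10 ratio column used only to check direction. The authors' deposited series matrix holds a linear ratio of the same signals, not centred, with column medians of 0.99 and 1.02 on the labelled fft3Δ arrays and 1.03 and 1.07 on the wild-type arrays. Flag columns, of unit other in the deposited files, mark non-uniform spots, which were left out (1, 0, 0 and 60 of the arm's probes on labelled fft3Δ arrays 1 and 2 and wild-type arrays 1 and 2), as were 1417 control spots of 42968.

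From the processed signals a log2 ratio per probe was taken and the median of its array subtracted, without loess, before averaging in 2 kb windows. Windows, 50 kb tiles, peaks, blocks and steps were each tested over the whole array in limma 3.58.1 (lmFit, then eBayes, under R 4.3.3), by a two-sided test in a model of genotype alone, and called at a Benjamini-Hochberg adjusted p under 0.05. The package data.table, version 1.17.8, read the files. Figures were drawn with matplotlib 3.10.9. The scripts were tested on simulated data. Items named are the 12 tallest peaks, the 5 peaks of highest and of lowest moderated t with the same sign in both series, the 5 largest steps each way, the 5 longest blocks of each class, the 5 lowest windows at least 20 kb apart, and 3 windows each way by moderated t. Others that the text mentions were chosen after their values were seen. The peak threshold, the lists and the arm itself were chosen with earlier results of these data known. The number of arrays limits the precision. Alternatives covered background correction, normalization, centring, flags, window and tile size, peak, block and step settings, series as a block and each array left out. In deviations from the group means, arrays of the same series correlated at r = 0.37 over 6234 windows. What a series stands for is not given in the sources used here, so the fit without the block is the one reported.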

Additional observations from a re-analysis of the deposited data

How the results depend on the processing

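Under the alternatives, 112 values of the arm's counts, shares and means were classed as stayed, 20 as moved and 2 as changed in sign. Of those for single named items, 489 stayed, 93 moved, 7 passed the test only there and 10 changed sign. To have stayed does not mean unchanged: a count had to lie within a fixed ratio and a share within the SD over arrays. An arm mean had only to keep its sign, and a tested difference its sign and its side of an adjusted p of 0.05. The level of a named item had to stay within the SD of same-genotype arrays. At 573000 the change from -0.43 to -0.97 with normexp thus counted as stayed. Values of the arm that moved or changed sign follow, with the changes of sign for named items, and the cause was not tested. The difference of the arm mean (-0.014) became 0.029 with the Cy5 signal alone, and it lay between -0.047 and 0.018, the last without wild-type array 2, when 1 array was left out. The share in early blocks (28.8%) was 26.0% after loess normalization, 26.9% with the Cy5 signal alone, 22.3% and 32.2% with running means of 10 and 40 kb, 25.04% with blocks defined on series 1 alone, and 25.7% to 29.2% with 1 array left out. The share in late blocks (17.2%) was 19.3% with the Cy5 signal alone, 18.7% with series 1 alone, and 15.7% to 17.6% with 1 array left out. The number of peaks (37) was 85 with the Cy5 signal alone, 1 at a threshold of 2 background SDs, 23 at a separation of 10 kb, and 35 to 41 with 1 array left out. The peak at 671700 was called in limma with flagged spots kept and with the replicate block, and some peaks with 1 array left out. These calls are given here without their share over the array. The replicate block (series) called 8 windows in limma and no tile, block or step. With 1 array left out, tiles called ran from 0 to 2 and steps from 0 to 4, the highest of both without wild-type array 1; the lone array of a group is there assumed to vary like the other group. With normexp background correction the differences at 1269000, 1458300, 840300 and 1465500 turned to -0.20, -0.0063, -0.14 and -0.070. With the Cy5 signal alone those at 671700, 573000, 689100, 682800 and 413400 turned to 0.086, 0.24, 0.34, 0.16 and 0.14, and that of the window at 694000 to 0.27. The number of arrays, 2 a genotype, and the lack of a dye swap limit what can be called. Wild-type array 2 differed from the other 3 in input range and software version, and their part in the differences was not tested.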
